A study of Homo sapiens with 6 samples.

Results

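The genes of WNT signalling were followed in the breast cancer cell line MDA-MB-231, an established human line of the triple-negative type. RNA-seq counts from 3 libraries of cells with an empty vector (labelled wild type) were set against 3 libraries of cells with shKDM2B, a hairpin RNA directed at KDM2B. Members were picked by gene symbol, with earlier results of these data known: the protein-coding WNT ligands, frizzled receptors (FZD), DKK and SFRP antagonists, and a fixed set of coreceptors, secretion factors, cytoplasmic components and TCF/LEF transcription factors. This gave 56 genes of the 61533 in the count table. By its title the series is about transcription of amino acid metabolism genes under KDM2B, which demethylates histones and is part of a noncanonical Polycomb complex. The labels name 1 line and do not say how many hairpins or clones were used, or whether the empty vector cells went through the same selection. Both groups were grown in the same medium, with no further treatment named, and harvested before confluence.

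WNT proteins are secreted lipid-modified ligands. They bind a frizzled receptor together with LRP5 or LRP6, and dishevelled proteins then inhibit a destruction complex of axin, APC and kinases that otherwise marks beta-catenin for breakdown. Stabilised beta-catenin enters the nucleus and activates genes with TCF/LEF factors, among them feedback inhibitors of the pathway. Other ligands, WNT5A best known among them, act mainly through frizzled and ROR receptors without beta-catenin, on cell polarity and migration.

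Library totals ran from 10190149 to 15737951 counts, and the members took 0.221 to 0.284% of them. KDM2B stood at 57.3, 68.0 and 65.3 CPM (counts relative to library size, scaled by the TMM method) in the empty vector libraries and at 14.9, 14.5 and 14.6 CPM in the shKDM2B libraries, a fall of 2.12 on the log2 scale (SE 0.08, adjusted p 8.77e-11). Markers of the mesenchymal-like line moved both ways in shKDM2B. VIM, which encodes the defining intermediate filament vimentin, fell 3.20-fold from 1299 to 405.9 CPM (adjusted p 1.43e-12), and CAV1 fell 1.27-fold from 486.5 to 382.8 CPM. Means were 2267 and 2551 CPM for AXL, 1094 and 1258 CPM for CD44 and 218.8 and 251.3 CPM for FOSL1, all called higher. SPARC, also called higher, had only 0.441 and 2.02 CPM and passed the low-count filter only through the shKDM2B libraries. MSN, at 1622 and 1587 CPM, did not pass the threshold. ESR1 and PGR, the receptors a triple-negative line lacks, had at most 4 and 3 counts in any library, while ERBB2 stood at 63.7 and 62.5 CPM. The luminal factors GATA3 and FOXA1 were present at a low level. GATA3 had 5.57 and 6.90 CPM and did not pass the threshold, and FOXA1 had 6.25 and 8.72 CPM and was called higher. Of the 9 fibroblast markers, COL1A1 and PDGFRB rose (summed level of the list 6.13 to 9.62 CPM in empty vector and 68.6 to 77.0 CPM in shKDM2B libraries), but no library held more than 4 counts of COL1A2, COL3A1, DCN or LUM. The 8 leukocyte markers summed to 71.6 to 86.4 CPM in empty vector and 11.9 to 14.001 CPM in shKDM2B libraries, nearly all of it HLA-DRA and LCP1, with CD3E and LYZ at 0 throughout. The 6 endothelial markers summed to 57.8 to 65.1 and 176.4 to 187.1 CPM, through ESAM and KDR, while CDH5 had at most 2 counts. Mitochondrially encoded genes took 0.0767 to 0.151% of counts in empty vector and 0.196 to 0.476% in shKDM2B libraries. The part of these shifts in the results below was not tested.

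Most measured members were higher after KDM2B knockdown. Of the 56 members, 34 passed the low-count filter (about 0.912 CPM in at least 3 libraries) and were tested with edgeR's quasi-likelihood test, with an adjusted p under 0.05 called a change. Higher levels in shKDM2B were called for 22, lower levels for 2, and 10 did not pass the threshold. That is 70.6% of the tested members called, against a background of 60.9% of the 14071 genes tested. In the upward direction it is 64.7% of members against 30.5% of all tested genes, and in the downward direction 5.88% against 30.4%. The median log2 fold change was 0.50 over the tested members and -0.00665 over all tested genes. The count of lower members was 4 without empty vector replicate 2. Groups did not overlap for 27 of the 34 (65.5% of all tested genes). WNT9A, WNT2B and WNT4 passed the filter only with the help of the shKDM2B libraries, where they were high. Among the other 31, 19 were higher and 2 lower. In bulk RNA, a gene's lower or higher level cannot be told apart from a change in the share of cells that express it.

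**Figure D1:**
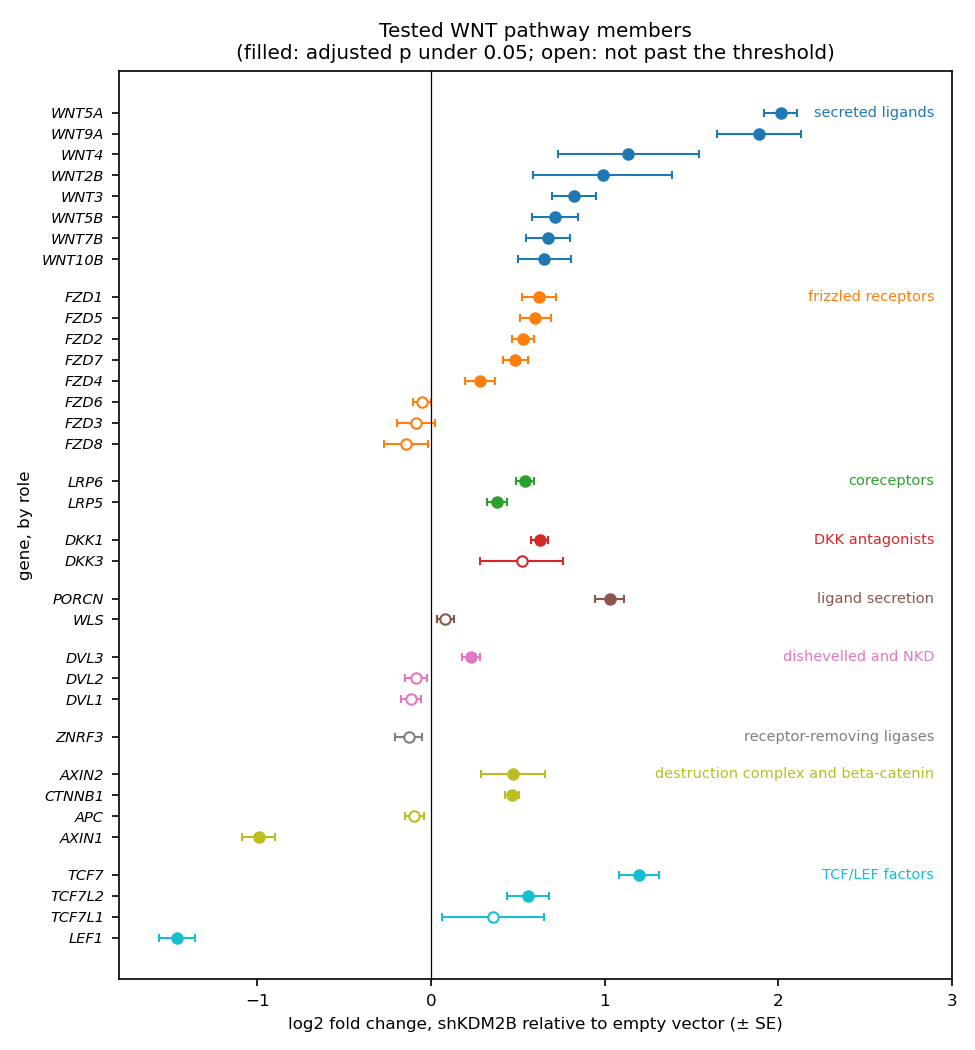
Log2 fold change of each tested member in shKDM2B relative to empty vector (x axis, points, with bars for the standard error), grouped by role in the pathway (y axis). Filled points passed an adjusted p of 0.05; WNT5A at 2.01 lies farthest to the right and LEF1 at -1.46 farthest to the left.

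All 5 ligands that passed the filter in every empty vector library were called higher, where 30.5% of all tested genes were. WNT9A, WNT2B and WNT4, which the filter kept only because of their level in shKDM2B, were called higher too and add nothing to that count. WNT5A, the ligand of the beta-catenin-independent branch, was at 27.9, 21.2 and 30.2 CPM in the empty vector libraries and at 112.3, 104.7 and 106.0 CPM in the shKDM2B libraries. The lowest knockdown library thus stood well above the highest control, a 4.04-fold rise (log2 fold change 2.01, SE 0.09, adjusted p 1.64e-09). WNT9A, a ligand known from joint formation, had 1.46, 1.71 and 0.796 CPM against 4.96, 4.55 and 4.82 CPM. Its groups were also far apart (log2 fold change 1.89, SE 0.24, adjusted p 1.13e-05), but the size rests on 11 to 18 counts per empty vector library. On GRCh38, WNT5A (ENSG00000114251.15) lies on chromosome 3 from 55465715 to 55490539, minus strand, and WNT9A (ENSG00000143816.8) lies on chromosome 1 from 227918656 to 227947898, minus strand.

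The remaining ligands moved less. WNT3, a beta-catenin-type ligand, had 7.49, 6.10 and 7.17 CPM in empty vector and 12.4, 13.1 and 11.4 CPM in shKDM2B (1.77-fold, adjusted p 5.72e-05). WNT5B, the close paralog of WNT5A, had 14.1, 18.2 and 12.4 CPM against 27.9, 22.0 and 23.2 CPM (1.64-fold, adjusted p 3.57e-04). Both pairs of groups were separate, with empty vector replicate 2 highest of its group for WNT5B and lowest for WNT3. WNT7B, a ligand of epithelial and vascular development, had 8.36, 8.29 and 8.83 CPM against 11.5, 13.7 and 15.2 CPM (1.60-fold, adjusted p 3.35e-04). WNT10B, a ligand of mammary and bone development, had 4.28, 3.90 and 4.13 CPM against 5.74, 6.83 and 6.71 CPM (1.57-fold, adjusted p 0.00197).

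WNT2B and WNT4, the second a ligand of progesterone-driven mammary branching, lay near the detection limit. WNT2B had 1.17, 0.857 and 0.290 CPM against 1.56, 1.23 and 1.56 CPM (log2 fold change 0.99, SE 0.40, adjusted p 0.0444), and empty vector replicate 3 held only 4 of its counts. Its call was lost in 7 of 16 alternative settings, among them DESeq2 (1.42.0) and leaving out any shKDM2B library, and its log2 fold change ran from 0.51 to 1.41 over them. The gene also shares 2661 exonic bases with ST7L on the opposite strand, and no source used here gives the strand setting of the counting. WNT4, below the mean level set for naming with every value, had 8, 6 and 4 counts against 10, 17 and 16 (log2 fold change 1.14, SE 0.41, adjusted p 0.0262), a call lost in 4 of 15 settings. The other 11 ligands, WNT1, WNT2, WNT3A, WNT6, WNT7A, WNT8A, WNT8B, WNT9B, WNT10A, WNT11 and WNT16, did not pass the filter.

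**Figure D2:**
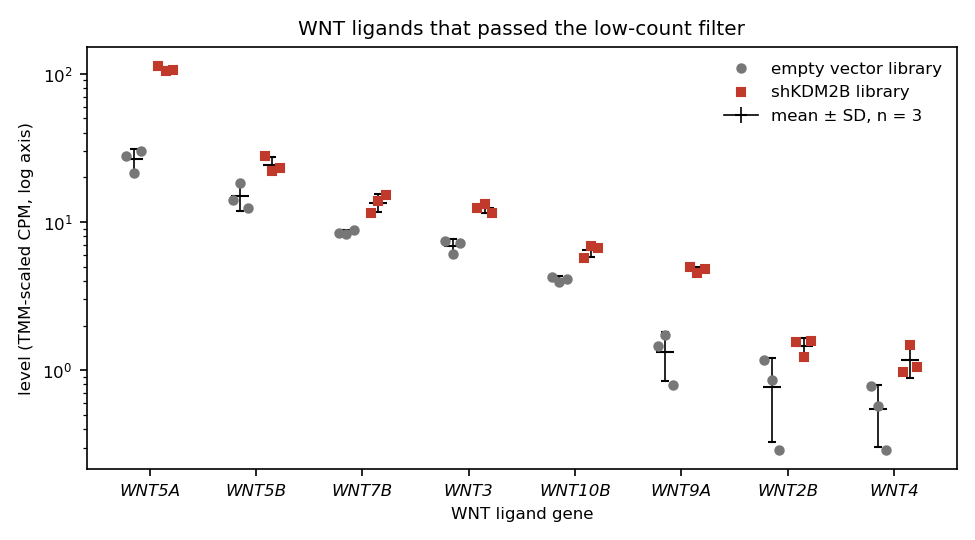
Level of the 8 tested WNT ligand genes (x axis) in TMM-scaled CPM on a log axis (y axis), with 1 point per library and the mean with SD (n = 3) of each group. Every shKDM2B point lies above the empty vector points of the same gene, and the gap is widest for WNT5A and WNT9A.

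Levels of different genes were compared per length, as CPM per kilobase of annotated exon. That length merges the exons of all annotated transcripts of a gene and can exceed that of the RNA present. Orders and ratios between genes therefore depend on the annotation. In empty vector cells WNT5A (3.58 ± 0.629, SD, n = 3) and WNT5B (3.46 ± 0.693) led the ligands and did not differ beyond their spread. WNT7B, WNT3 and WNT10B followed at 1.68, 1.60 and 1.56, and WNT9A, WNT4 and WNT2B lay at 0.333, 0.121 and 0.0614. In shKDM2B cells WNT5A reached 14.6 ± 0.552 and WNT5B 5.66 ± 0.727. Summed over all 19 ligands, the level went from 12.7 ± 0.224 to 30.8 ± 0.838 CPM per kilobase. WNT5A made up 29.3, 22.5 and 32.8% of that sum in the empty vector libraries and 48.0, 47.3 and 46.6% in the shKDM2B libraries, given as a description with no test.

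The KDM2B protein binds unmethylated CpG dinucleotides through its CXXC zinc finger, so the bases upstream of the start are shown for the 2 ligands that rose most. Each line is the 120 bases before a RefSeq gene start (GRCh38.p14), printed 5′ to 3′ on the strand of the gene, with every CpG in capitals. WNT5A has 2 listed starts, at chr3:55487307-55487426 and chr3:55481399-55481518, both on the minus strand, and WNT9A has 1, at chr1:227947933-227948052 on the minus strand.
WNT5A, upstream start: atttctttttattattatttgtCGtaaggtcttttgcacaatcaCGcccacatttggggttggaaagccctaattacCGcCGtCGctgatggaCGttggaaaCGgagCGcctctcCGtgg
WNT5A, downstream start: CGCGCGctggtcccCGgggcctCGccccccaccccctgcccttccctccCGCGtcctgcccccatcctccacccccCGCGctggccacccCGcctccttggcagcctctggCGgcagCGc
WNT9A: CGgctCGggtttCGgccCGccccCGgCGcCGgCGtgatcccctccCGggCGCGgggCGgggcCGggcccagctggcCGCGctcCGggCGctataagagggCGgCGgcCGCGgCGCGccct
Over the 250 bases before the start, WNT5A holds 14 and 18 CpGs at its starts and WNT9A holds 44. The median was 20 over 14514 promoters of tested genes, and 21 over the 50 promoters listed for 40 of the 56 members. The word CTTTGAT, a form of the site that TCF/LEF factors recognise, was searched on both strands of the same 250 bases. It occurred in 0 of the 50 member promoters and in 1.78% of all 22199 protein-coding promoters.

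Ligand secretion was represented by PORCN, the acyltransferase that attaches the lipid WNT ligands need, and WLS, the carrier that takes them to the cell surface. PORCN had 16.4, 18.7 and 19.0 CPM in empty vector and 37.0, 38.2 and 35.6 CPM in shKDM2B libraries. The groups were wide apart, a 2.04-fold rise (log2 fold change 1.03, SE 0.08, adjusted p 1.03e-07). The gene PORCN (ENSG00000102312.24) lies on chromosome X from 48508962 to 48520814, plus strand. For WLS the log2 fold change was 0.08 and did not pass the threshold (159.5 ± 3.86 against 168.9 ± 4.03 CPM, SD, n = 3 each, adjusted p 0.159).

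Of the 10 frizzled receptors, 8 were tested, of which 5 were higher and 3 did not pass the threshold. The share called in either direction, 62.5%, lies near the 60.9% of all tested genes. In the upward direction it is 62.5% against 30.5%, and in the downward direction 0% against 30.4%. FZD9 and FZD10 had 0 counts in every library. FZD1 had 16.7, 17.0 and 19.7 CPM against 28.3, 25.0 and 29.2 CPM (1.54-fold, adjusted p 6.84e-05). FZD5, a receptor with a role in eye and gut development, had 19.0, 21.2 and 22.7 CPM against 29.8, 31.2 and 34.5 CPM (1.52-fold, adjusted p 5.62e-05). For both, all knockdown libraries exceeded all controls. FZD2 (log2 fold change 0.53), FZD7 (0.49) and FZD4, also a receptor for norrin (0.28), rose less. FZD4 shares 1399 exonic bases with the more abundant PRSS23 on the opposite strand, so its counts are uncertain, and its call was lost without shKDM2B replicate 3 and in a test against a 1.2-fold change (adjusted p 0.341). FZD6, FZD3 and FZD8 had log2 fold changes of -0.05, -0.09 and -0.14 with overlapping groups. Per length, FZD6 (30.8 CPM per kilobase) and FZD2 (25.8) were the most abundant frizzleds in empty vector cells, and in shKDM2B cells FZD2 stood at 37.2 and FZD6 at 29.8.

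Both coreceptors rose. LRP6 had 95.9, 99.7 and 95.1 CPM in empty vector and 135.7, 141.4 and 145.4 CPM in shKDM2B libraries (1.45-fold, adjusted p 6.06e-07). LRP5, which is also a regulator of bone mass, had 74.8, 75.5 and 71.2 CPM against 90.03, 97.6 and 100.2 CPM (1.30-fold, adjusted p 4.72e-05). Neither gene had overlapping groups.

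Among the secreted antagonists, DKK1, which blocks LRP5 and LRP6, was the one expressed at a high level. It had 184.3, 195.6 and 190.0 CPM against 284.9, 297.2 and 297.4 CPM, so the antagonist rose together with the receptors it binds (1.54-fold, log2 fold change 0.63, SE 0.05, adjusted p 6.07e-08). Per kilobase of merged exon, DKK1 stood at 86.1 and CTNNB1 at 61.9 in empty vector cells. The merged lengths were 2206 bases for DKK1 and 11927 for CTNNB1, so this order depends on the length used. In CPM without length, DKK1 had 190.0 and CTNNB1 738.3. DKK3, a divergent family member, had a log2 fold change of 0.52 that did not pass the threshold (adjusted p 0.0732, groups overlapping) except without shKDM2B replicate 1 (adjusted p 0.0318). DKK2 and DKK4 had at most 2 and 1 counts in any library. None of the SFRP antagonists, which bind WNT ligands directly, passed the filter: SFRP1, SFRP2, SFRP4 and SFRP5 had at most 1, 0, 8 and 3 counts. A library at 0 allows up to 3 counts, or 0.195 to 0.292 CPM over the 6 libraries, for counting error only.

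For receptor turnover and dishevelled, 1 of 4 tested members was called, against 60.9% of all tested genes. ZNRF3, a ubiquitin ligase that removes frizzleds from the surface, had a log2 fold change of -0.13 (adjusted p 0.169), and its relative RNF43 had at most 5 counts. RNF43 shares 4326 of its 7505 exonic bases with AC004687.2 on the same strand, so its low count is uncertain. DVL3 rose by 0.23 on the log2 scale (91.9 ± 1.92 against 107.8 ± 2.87 CPM, adjusted p 0.00125). DVL1 (-0.12, adjusted p 0.0914) and DVL2 (-0.09, adjusted p 0.246) did not pass the threshold, although DVL1 was called lower without empty vector replicate 1 (adjusted p 0.0199) and DVL2 without empty vector replicate 2 (adjusted p 0.00498). NKD1 and NKD2, which inhibit dishevelled, had at most 12 and 1 counts.

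The destruction complex was split between its axins. AXIN1, the constitutive scaffold of the complex, had 45.8, 54.1 and 44.5 CPM in empty vector and 24.9, 26.2 and 21.8 CPM in shKDM2B libraries. Every knockdown library lay far under every control, a 1.99-fold fall (log2 fold change -0.99, SE 0.09, adjusted p 5.49e-07). AXIN2, the scaffold that is itself a beta-catenin target, had 2.63, 2.48 and 2.75 CPM against 3.89, 3.68 and 3.45 CPM. These groups did not overlap either, but the rise of 0.47 on the log2 scale (SE 0.18, adjusted p 0.0386) was lost in 10 of 16 alternative settings, leaving out any 1 library among them. Per length, AXIN1 was 12.9 ± 2.08 times as abundant as AXIN2 in empty vector cells and 4.61 ± 0.311 times in shKDM2B cells (SD, n = 3 each). AXIN2 shares 1316 exonic bases with AC004805.1 on the same strand, so its counts and this ratio are uncertain. APC, the tumour suppressor of the complex, had a log2 fold change of -0.09 (adjusted p 0.142) and was called lower only without empty vector replicate 2 (adjusted p 0.00501). CTNNB1, which encodes beta-catenin, had 709.5, 765.7 and 739.6 CPM against 994.5, 1019 and 1048 CPM. It rose 1.38-fold with no overlap (log2 fold change 0.47, SE 0.04, adjusted p 2.46e-07). In the annotation AXIN1 (ENSG00000103126.15) lies on chromosome 16 from 287440 to 352673, minus strand, and CTNNB1 (ENSG00000168036.18) lies on chromosome 3 from 41194741 to 41260096, plus strand.

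AXIN1 was one of only 2 tested members that fell, and the 120 bases before its RefSeq start (chr16:352724-352843, minus strand, GRCh38.p14) are shown for comparison with the ligands, CpGs again in capitals.
AXIN1: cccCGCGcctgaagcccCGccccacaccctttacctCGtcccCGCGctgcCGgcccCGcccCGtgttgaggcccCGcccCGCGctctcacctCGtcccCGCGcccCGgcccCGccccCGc
Over 250 bases AXIN1 holds 35 CpGs.

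The nuclear factors showed the opposite movement of 2 relatives. LEF1, which is also a target of the pathway, had 32.5, 28.2 and 34.7 CPM in empty vector and 10.8, 11.4 and 12.3 CPM in shKDM2B libraries. Its groups were widely separate, a 2.76-fold fall and the largest decrease of the tested members (log2 fold change -1.46, SE 0.10, adjusted p 2.33e-08). TCF7, which encodes TCF-1, had 5.64, 6.10 and 6.73 CPM against 14.5, 14.3 and 14.001 CPM. It rose 2.30-fold with no overlap (adjusted p 7.36e-07). TCF7 shares 210 exonic bases with the abundant SKP1 on the opposite strand, so part of its counts is uncertain. By position LEF1 (ENSG00000138795.10) lies on chromosome 4 from 108047545 to 108168956, minus strand, and TCF7 (ENSG00000081059.20) lies on chromosome 5 from 134114711 to 134151865, plus strand. TCF7L2, which encodes TCF-4, rose by 0.56 on the log2 scale (27.9 ± 5.73 against 41.3 ± 2.27 CPM, adjusted p 0.00138). TCF7L1, mostly a repressor, had a log2 fold change of 0.36 with overlapping groups (adjusted p 0.315), and was called higher only without empty vector replicate 1 (0.77, adjusted p 0.0328).

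Per length, the summed level of the 4 factors was 11.2 ± 1.48 CPM per kilobase in empty vector and 10.3 ± 0.437 in shKDM2B cells, a difference within the spread of the controls. Their makeup differed. LEF1 was 50.8, 55.4 and 53.2% of the sum in the empty vector libraries and 19.9, 21.2 and 21.2% in the shKDM2B libraries. TCF7L2 went from 36.8 ± 2.95 to 59.4 ± 1.43% and TCF7 from 5.53 ± 0.846 to 13.8 ± 0.771% (SD, n = 3 each, described with no test).

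**Figure D3:**
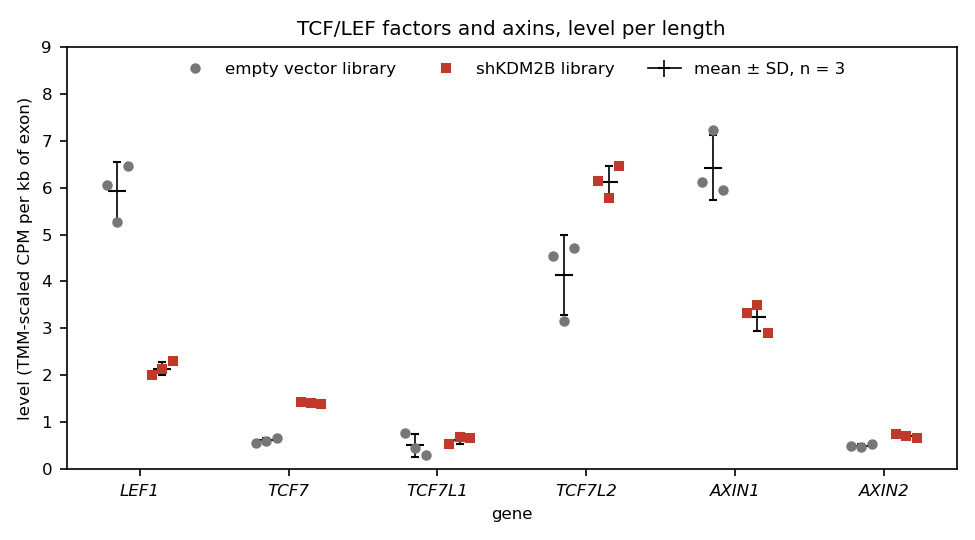
Level of the TCF/LEF factors and the 2 axins (x axis) in TMM-scaled CPM per kilobase of exon (y axis, from 0), with 1 point per library and the mean with SD (n = 3) of each group. LEF1 and AXIN1 drop in all shKDM2B libraries, TCF7 and TCF7L2 rise, and the AXIN2 level stays below 1 in both groups.

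The starts of the 2 factors that moved most are shown in the same way. LEF1 has 1 listed start (chr4:108166302-108166421, minus strand) and TCF7 has 2 (chr5:134115493-134115612 and chr5:134123498-134123617, plus strand).
LEF1: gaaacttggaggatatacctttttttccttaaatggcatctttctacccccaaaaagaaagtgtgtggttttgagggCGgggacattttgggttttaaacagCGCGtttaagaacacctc
TCF7, upstream start: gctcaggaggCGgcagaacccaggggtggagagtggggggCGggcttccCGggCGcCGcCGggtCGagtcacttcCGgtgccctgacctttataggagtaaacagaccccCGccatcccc
TCF7, downstream start: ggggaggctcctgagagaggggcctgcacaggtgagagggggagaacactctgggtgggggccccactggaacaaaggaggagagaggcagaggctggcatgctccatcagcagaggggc
Over 250 bases LEF1 holds 8 CpGs, and TCF7 holds 22 at the upstream and 1 at the downstream start. At the listed starts of the 2 falling genes, AXIN1 is thus CpG-rich and LEF1 is not, and starts of rising genes include both kinds as well. The listed LEF1 start lies inside the gene, whose 5′ end is annotated at position 108168956. The bases before that end were not examined, so the contrast holds for the listed start only. Those of WNT5A and TCF7 also lie inside their annotated genes. The counts are per gene and do not show which start was used.

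Of 596 tested genes with the word CGACAC in the annotated 3' UTR of their longest coding transcript, 50.3% were called lower, and of 11308 without it, 30.5%. The word was known from earlier results of these same counts, so the shares are a description. LEF1 and AXIN1 do not hold it. Among the tested members TCF7L2, which rose, holds 1 copy, and NKD1, under the filter, holds 1 as well.

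Established transcriptional targets of beta-catenin and TCF were listed, with earlier results of these data known. Of 34 such genes, 7 of them also members, 24 were tested. Of these, 18 were called higher and 2 lower, and 4 did not pass the threshold. That is 75.0% higher and 8.33% lower, against 30.5% and 30.4% of all tested genes. The median log2 change was 0.58. Among the 27 that are not members, 19 were tested, with 15 higher and 1 lower. EPHB3 and NRCAM, both called higher, passed the filter only with the help of the shKDM2B libraries. They are included in the counts, shares and median above, but their calls are no support for a rise. ID2, an inhibitor of basic helix-loop-helix factors, went from 8.56 ± 0.747 to 49.8 ± 3.45 CPM (SD, n = 3 each; 5.77-fold, adjusted p 5.60e-11). L1CAM, a neural adhesion molecule, rose 3.43-fold to 48.1 ± 3.89 CPM. LGR5, a stem cell receptor for R-spondins, rose 2.43-fold to 12.5 ± 0.792 CPM. BAMBI and BMP4, of the TGF-beta and BMP pathway, rose 2.35-fold and 2.10-fold. CCND1, which encodes cyclin D1, rose 1.87-fold from 912.1 ± 11.1 to 1709 ± 37.8 CPM (adjusted p 6.30e-11). Of the target genes, LEF1 and MYC (-0.88, chosen after its values were seen) were the ones called lower. Several listed targets answer to other pathways as well, so the list is not specific to WNT.

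Further pathway components outside the module moved both ways, 14 higher and 9 lower of 32 tested (49 listed, median log2 fold change 0.17). The shares were 43.8% higher and 28.1% lower, the second near the 30.4% of all tested genes. TLE2, called higher, passed the filter only through the shKDM2B libraries. It is included in the counts, shares and median above, but its call is no support for a rise. TNKS2, a tankyrase that marks axin for degradation, rose 2.02-fold from 136.2 ± 7.95 to 275.4 ± 1.61 CPM (SD, n = 3 each; adjusted p 1.29e-09). BCL9L, a coactivator bound to beta-catenin, rose 1.82-fold to 278.6 ± 11.4 CPM. GPC4, a heparan sulfate proteoglycan at the cell surface, also rose 1.82-fold. CSNK1G2, a casein kinase that phosphorylates LRP6, fell 2.60-fold from 115.0 ± 5.06 to 44.2 ± 2.53 CPM, and AMER1, a scaffold of the destruction complex, fell 2.46-fold. FRAT2, which binds GSK3, fell 2.32-fold, and KREMEN1, a receptor for DKK proteins, fell 1.76-fold. The R-spondins RSPO1 to RSPO4, the antagonist WIF1 and the feedback hydrolase NOTUM, chosen after their values were seen, reached no more than 4 counts in a library.

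In the planar cell polarity and receptor kinase branch, 6 of 13 tested genes were higher and 6 lower (17 listed, median -0.22), which is 46.2% each way against 30.5% and 30.4% of all tested genes. ROR1, a kinase-type receptor for WNT5A, rose 2.51-fold from 18.9 ± 1.09 to 47.5 ± 2.42 CPM (SD, n = 3 each; adjusted p 4.61e-09). The polarity cadherin CELSR2 rose 3.97-fold from 7.07 ± 1.498 to 27.6 ± 0.452 CPM, and the formin DAAM1, which acts downstream of dishevelled, rose 2.10-fold. VANGL1, a core polarity protein, and PTK7, a pseudokinase coreceptor, fell 1.92-fold and 1.89-fold, PTK7 from 165.9 ± 2.63 to 87.9 ± 1.42 CPM. CELSR1, PRICKLE2 and INTU had log2 fold changes of 0.48, 0.53 and -0.51. ROR2, chosen after its values were seen, had at most 2 counts. RYK, a further receptor of this branch and also chosen after its values were seen, was more abundant than ROR1. It fell 1.32-fold from 102.5 ± 6.43 to 77.3 ± 2.50 CPM (adjusted p 3.1e-05).

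**Figure D4:**
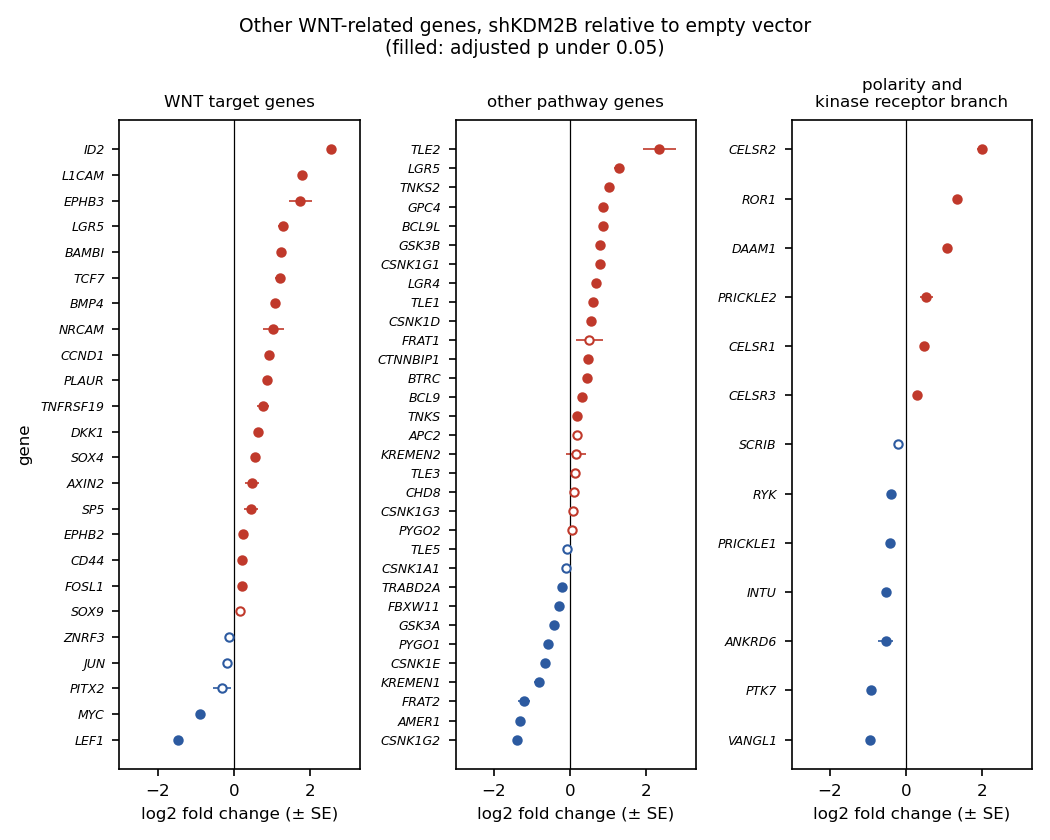
Log2 fold change in shKDM2B relative to empty vector (x axis, with standard error) of the tested genes (y axis) of 3 lists: WNT target genes, other pathway genes, and the polarity and kinase receptor branch. Filled points passed an adjusted p of 0.05; 18 of 24 targets are filled and to the right of 0, while the other lists spread to both sides.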

How the data were processed

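RNA-seq libraries (ribosome-depleted total RNA, KAPA RNA HyperPrep, per the labels' protocols) came from 3 empty vector and 3 shKDM2B samples. The authors deposited raw read counts per gene. Tools listed in the submitters' processing notes are STAR, featureCounts, Trim Galore, limma, edgeR and DESeq2, with the build GRCh38. The sources used here give neither their versions nor the strand setting or annotation release. Each column was assigned by its name. The knockdown columns carry sh and a code in place of KDM2B, and shKDM2B is the only hairpin group.

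Symbols came from a gene name table (61369 identifiers matched), and protein-coding status, exon lengths and overlaps from GENCODE on GRCh38. Promoters came from RefSeq (GRCh38.p14). Counts were filtered with filterByExpr, scaled by TMM and tested with edgeR 4.0.16 (R 4.3.3; quasi-likelihood, robust, two-sided), with Benjamini-Hochberg adjustment over 14071 genes. The SE is the log2 fold change divided by the root of its F statistic. Scripts were tested on simulated data. Alternatives were 2 other scalings, 2 filters, DESeq2 1.42.0, limma-voom (limma 3.58.1), no robust step, a replicate block, a 1.2-fold threshold, leaving out each library, and a prior count of 2.

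Members and gene lists were chosen with earlier results of these data known. Named with the value in each library were called members changed at least 1.5-fold at a mean of at least 1 CPM, and CTNNB1, LRP5, LRP6 and AXIN2. In other lists up to 8 called genes with at least 5 CPM were named. The labels call the replicates biological but name no separate cultures, so p-values measure only the spread between libraries, which may be technical. No 2 libraries of a group were duplicates (chi-square over degrees of freedom from 2.00 to 10.0). One marker of the line is not reported here.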

Additional observations from a re-analysis of the deposited data

How the results depend on the processing

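No tested member changed its direction under any alternative run. Both other scalings, limma-voom and no robust step left the calls of all 34 tested members as they were. A prior count of 2 enters only the log2 fold changes, so it could not alter a call. It is included in the numbers of alternative settings given above. The count of members called higher was 22, and 17 when tested against a 1.2-fold change, 19 with DESeq2 and 19 to 23 when a library was left out. The count called lower was 2 under every setting with all 6 libraries, and ranged from 2 to 4 when a library was left out; it was 4 without empty vector replicate 2, where APC and DVL2 joined LEF1 and AXIN1. Tested against a 1.2-fold change, 2797 of all tested genes were called higher and 2661 lower, against 4288 and 4283, since that test asks for a larger change; WNT2B, WNT4, FZD4, DVL3 and AXIN2 then lost their calls. Without the filter the count called higher was again 22, but WNT1 and WNT10A, otherwise untested, joined it and WNT2B and AXIN2 left it. With the replicate block, 21 members were called higher and 2 lower, and AXIN2 was the 1 call lost. Same-numbered libraries correlated at 0.118, -0.0258 and 0.0751 in their deviations from the group means, so the numbers were not taken to pair the samples. In the list of target genes, 13 to 18 were called higher over the alternatives. Low counts limit WNT2B, WNT4, WNT9A and AXIN2 and all 22 members under the filter.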

Other observations

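Some WNT genes lie side by side as old duplicate pairs, and values of 4 such pairs are given here. WNT10B, which rose, lies 6.69 kilobases from WNT1 on chromosome 12. WNT1, the ligand first known from mouse mammary tumours, was under the filter, with 0, 2 and 2 counts in the empty vector and 11, 8 and 14 counts in the shKDM2B libraries. WNT9A, kept by the filter only through its level in shKDM2B, lies 59.2 kilobases from WNT3A on chromosome 1, and WNT3A had at most 1 count in any library. WNT3, which rose, neighbours WNT9B on chromosome 17, and WNT9B had at most 2 counts. In the other pair, 6.13 kilobases apart on chromosome 2, WNT6 had at most 1 count, while WNT10A had 1, 1 and 0 counts in empty vector and 4, 3 and 19 counts in shKDM2B libraries, most of them in replicate 3. Without the filter, edgeR's quasi-likelihood test called WNT1 (adjusted p 0.000156) and WNT10A (adjusted p 0.000309) higher, as 4294 of 35607 genes were in that setting. Its p-values are not comparable with those of the main test: WNT5A had an adjusted p of 4.22e-175 there and 1.64e-09 in the main test. The genes of these pairs were chosen after their values were seen.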
